A study of Mus musculus with 2 samples.

Results

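The Mir297, Mir466, Mir467 and Mir669 genes make up 81 of the 1174 GENCODE mouse miRNA genes with a Mir symbol. They were chosen by symbol alone, and most of them lie as repeats inside 1 intron of Sfmbt2. By symbol, 6 belong to Mir297, 28 to Mir466, 17 to Mir467 and 30 to Mir669. Small RNA was sequenced from J1 cells, a mouse embryonic stem cell line of the 129S4/SvJae strain. The cells were cultured on gelatin in serum replacement medium with 1000 U/mL LIF. In the SC1 condition the cells received 1 µM SC1 for 6 h, and in the DMSO condition an equal volume of DMSO for 6 h. SC1, also called pluripotin, is a small molecule known for sustaining the self-renewal of mouse embryonic stem cells. Each condition had 1 library, so no value below has a replicate error, and intervals cover counting error only.

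Sfmbt2 encodes a Polycomb group protein and is an imprinted gene, expressed from the paternal allele in the placenta. The large miRNA cluster in its intron is found in rodents and is known for a role in growth of the placenta. A miRNA hairpin is cut into a 5p and a 3p product, and bases 2 to 8 of a product, its seed, guide most of its target pairing. In mouse embryonic stem cells the most abundant miRNAs are those of the miR-290 to miR-295 cluster.

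In the 18 to 26 nt DMSO reads, 1 product stood far above all others of the repeat genes. It was miR-669c-5p, from a hairpin at chr2:10509296-10509404 on the plus strand (GRCm38), in the Sfmbt2 intron. The hairpin is shown here with its most abundant DMSO tag in capitals, bases 24 to 47:
Mir669c: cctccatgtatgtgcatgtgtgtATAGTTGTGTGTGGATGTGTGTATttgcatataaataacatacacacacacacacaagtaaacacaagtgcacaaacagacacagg

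The next sequences are the most abundant deposited DMSO tag of the products that carry the results, with the seed in capitals. They are tags from the library and not annotated mature ends.
miR-669c-5p: aTAGTTGTgtgtggatgtgtgtat
miR-669a-3p and miR-669o-3p: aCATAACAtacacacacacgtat
miR-467a-3p and miR-467d-3p: aTATACATacacacacctacac
miR-297a-3p, miR-297b-3p and miR-297c-3p: aTATACATacacacatacccat
miR-466f-3p from Mir466f-2: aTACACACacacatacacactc
miR-466f-3p from Mir466f-3: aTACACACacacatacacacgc
miR-466-3p, miR-466b-3p, miR-466c-3p, miR-466e-3p and miR-466p-3p: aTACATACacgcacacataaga
miR-466d-3p and miR-466h-3p: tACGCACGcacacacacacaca
miR-467a-5p and miR-467b-5p: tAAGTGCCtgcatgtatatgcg
miR-467c-5p: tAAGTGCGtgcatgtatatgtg
miR-467d-5p: aTAAGTGCgcgcatgtatatgc
miR-467e-5p: aTAAGTGTgagcatgtatatgt
miR-669h-5p: aTGCATGGgtgtatagttgagtg
Letter use differed between the arms. The 13 products of the 5p side had a median of 72.7% T or G in their leading tag, with a range from 54.5% to 83.3%. The 20 products of the 3p side had a median of 77.3% A or C, with a range from 66.7% to 86.4%.

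The lists allowed no comparison of SC1 with DMSO. The SC1 list held 1275599 reads on tags of 3 to 17 nt, and the DMSO list 18870345 reads on tags of 18 to 44 nt. Of the reads of 15 to 17 nt in the SC1 list, 38 of 1054495 matched a repeat gene, on 12 tags, a share of 0.0036% with an exact interval from 0.0026% to 0.0049%. They were 0.0712% of the 53343 short SC1 reads that matched any Mir hairpin. The 18 to 26 nt window held 0 SC1 reads. In the DMSO library the miR-290 to miR-295 products summed to 290050 RPM, the miR-302 products to 101 RPM, and the fibroblast-associated miR-143, miR-145a, miR-199a and miR-214 to 1405 RPM. RPM is reads in each 1000000 reads assigned to mature miRNAs, of which the DMSO library had 2167140.

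Among the short SC1 reads, 1 tag carried 21 of the 38. It matched Mir466d and Mir466n and no other transcript of the reference, and it equals the first 17 bases of the leading tag of miR-466d-5p and miR-466n-5p:
SC1 tag: gtgtgtgcgtacatgta
miR-466d-5p and miR-466n-5p, DMSO: gTGTGTGCgtacatgtacatgt
In the DMSO list 32 reads began with those 17 bases. The other 11 SC1 tags had 1 to 3 reads each. After an equal split of shared reads, miR-466d-5p and miR-466n-5p had 11 short SC1 reads each, miR-669a-3p and miR-669o-3p 2.5 each, and miR-466m-3p 2. In all, 34 of the 38 reads lay at the start of a DMSO-defined arm, and 5 fitted 1 repeat gene alone. The abundant DMSO product miR-669c-5p had 0 short SC1 reads at its start, which allows a share of up to 0.000284% of the 15 to 17 nt reads. A reversed tag, a measure of chance matches, hit a repeat gene in 1 SC1 read. Only 22 of the 38 reads matched no other transcript.

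In the DMSO list, 40363 reads on 389 tags matched a repeat gene. They were 1.85% of the 2177993 reads that matched any Mir hairpin, with an exact interval from 1.84% to 1.87%. Reversed tags matched the repeat genes in 30 reads on 15 tags. The antisense strand was matched in 1 read. None of the 40363 reads also matched a Mir hairpin of another name.

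Mir669c alone accounted for 33610 of these reads, or 83.3%. Reads of the other genes mostly could not be placed on 1 gene. Over all repeat genes, 35805 reads (88.7%) fitted 1 gene and 4558 (11.3%) fitted several. Leaving out Mir669c, 2195 of 6753 reads (32.5%) fitted 1 gene and 4558 (67.5%) fitted several. Most reads that fitted several genes fitted 11 (1792 reads) or 12 (1514 reads), and the largest number for 1 tag was 15. The 81 genes hold 63 distinct hairpin sequences, and 24 genes share their whole hairpin sequence with another. At least 1 read fitted 76 genes, but only 33 had a read that fitted them alone, and 23 had 10 or more such reads. The same counts over all Mir genes are not given here. By symbol, reads that fitted genes of 1 prefix only numbered 35546 for Mir669, 2502 for Mir467, 1802 for Mir466 and 501 for Mir297.

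By position, 71 genes lie in the Sfmbt2 intron on the same strand as the host. The intron spans chr2:10461473-10523944 (62472 nt) and is intron 10 or 11 of the annotated transcripts with 23 exons. The miRNA genes span 51617 nt of it, from 10466663 to 10518279. Mir467a and Mir467b copies recur at a median distance of 2454.5 nt between neighbouring starts. Reads that fitted intron genes only made up 40180 of 40363 (99.5%), reads that fitted both an intron gene and a gene elsewhere 155, and reads that fitted genes elsewhere only 28. With shared reads split equally, 99.8% fell to the intron, and 98.6% when Mir669c was left out. These shares weigh the repeat genes against each other only. Of the 40363 reads, 722 (1.79%) also matched a transcript that is no miRNA, and the genome outside annotated transcripts was not searched. All 71 intron genes had a fitting read, but for many of them every such read was shared with other genes.

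Own reads came from the ends of the array. In the first 17.2 kb, 16 of 28 genes had reads that fitted them alone, 1267 reads in all. The middle 17.2 kb held 19 genes, and 0 of them had an own read, while an equal split gave them 1814 shared reads. In the last 17.2 kb, 14 of 24 genes had own reads, 34519 in all, of which Mir669c held 33610. These tags do not resolve the separate levels of the middle genes.

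**Figure D1:**
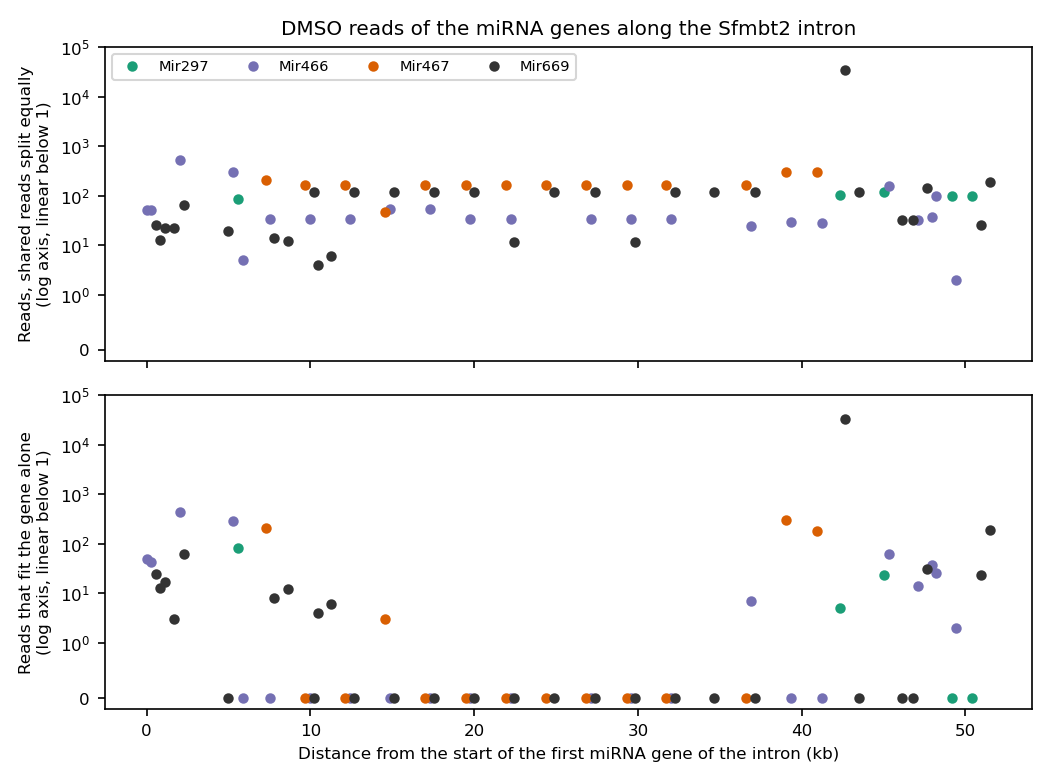
Reads of the 71 miRNA genes of the Sfmbt2 intron in the DMSO library, by distance in kb from the first of them, coloured by symbol prefix. The upper panel splits shared reads equally and the lower panel counts reads that fit the gene alone; Mir669c stands at 33610 reads in both, and the 19 genes of the middle 17.2 kb sit at 0 in the lower panel.

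Outside the intron, 10 genes were measured and 5 had a fitting read. Reads that fitted one of them alone numbered 14 for Mir466q, 4 for Mir466i and 1 for Mir297-1. Mir466q lies at chr3:28419943-28420018 in an intron of Tnik, a kinase gene, on the same strand. Its annotated RefSeq product (GRCm38.p6) had 0 reads of that exact sequence, and all 14 own reads lay on the 5p side of the hairpin:
mmu-miR-466q, RefSeq: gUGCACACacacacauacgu
Mir466i lies at chr13:17747473-17747593, opposite to Cdk13, a cyclin-dependent kinase gene. Reads that fitted Mir466i numbered 149, and all but its 4 own reads fitted another repeat gene as well. Mir297-1 lies at chr7:10958437-10958512 in no other annotated gene. Mir466f-4 had 7 and Mir466k 12 fitting reads, none their own. Mir466j, Mir467f, Mir467g, Mir467h and Mir669n had 0.

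The repeat genes gave 44 of the 483 mature names in the DMSO library. Of these 44, 9 reached 100 RPM, against 242 of all 483 names. The median was 32.8 RPM over the 44 names and 100.6 RPM over all names. All 44 together summed to 18485 RPM, and to 2980 RPM without miR-669c-5p. Levels of names that share their tags are an equal split, so the shared value is given below for the product as a whole.

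The Mir669 genes ranged most widely. miR-669c-5p had 33601 reads, 15505 RPM with an exact Poisson interval from 15339 to 15671, and ranked 16 of 483. The product shared by miR-669a-3p and miR-669o-3p had 1327 reads, 612 RPM (580 to 646), from 12 genes. miR-669h-5p, from the last gene of the array, had 138 reads or 63.7 RPM. miR-669a-5p and miR-669p-5p shared 86 reads from 14 genes, against the 1327 of the shared 3p product. The other Mir669 products had 11 to 53 reads.

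The Mir467 genes were the next most abundant set. miR-467a-3p and miR-467d-3p shared 1304 reads, 602 RPM (569 to 635), from 11 genes. miR-467a-5p and miR-467b-5p shared 495 reads, 228 RPM (209 to 249), also from 11 genes. miR-467e-5p, miR-467c-5p and miR-467d-5p come from 1 gene each and had 238, 196 and 185 reads, or 110, 90.4 and 85.4 RPM. The intervals of these 3 neighbours in the order overlap, at 96.3 to 125, 78.2 to 104 and 73.5 to 98.6 RPM. miR-467e-3p had 86 reads, 70 of them in no other product.

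Among Mir466 and Mir297 genes, 3p products led. The Mir466f-2 and Mir466f-3 products of miR-466f-3p had 581 and 311 reads, of which 444 and 289 were in no other product. As a mature name, miR-466f-3p reached 388 RPM, the second highest of the 44. The product shared by miR-466-3p, miR-466b-3p, miR-466c-3p, miR-466e-3p and miR-466p-3p had 361 reads from 13 genes. miR-466d-3p and miR-466h-3p shared 164 reads. The 3 Mir297 names shared 386 reads, 178 RPM (161 to 197), from 4 genes. A separate miR-297a-3p product of Mir297a-2 had 80 reads.

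**Figure D2:**
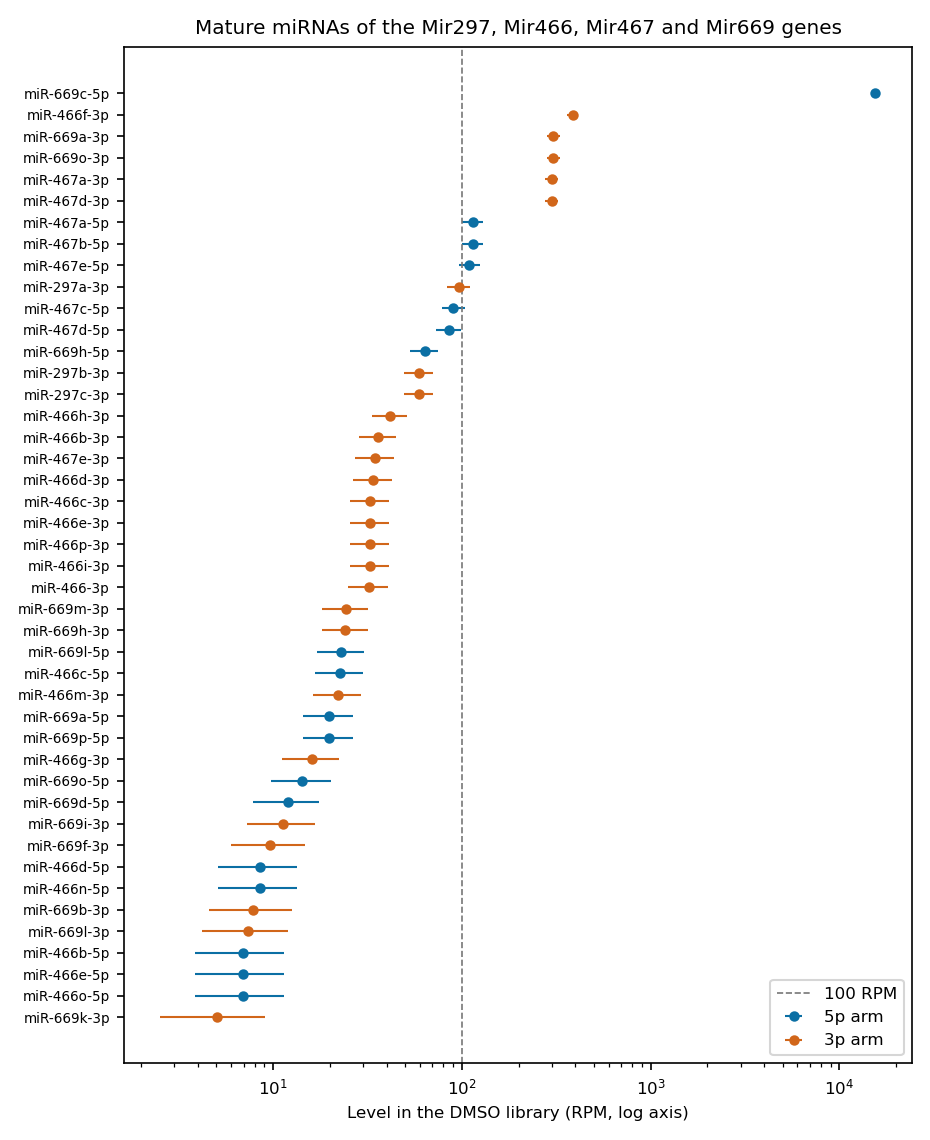
Level of the 44 mature names of the repeat genes in the DMSO library, in RPM on a log axis, with exact 95% Poisson intervals and the arm as colour. miR-669c-5p stands at 15505 RPM and miR-466f-3p, the next, at 388 RPM. Names that share all their tags, such as miR-669a-3p and miR-669o-3p, have equal values because their reads were split equally.

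The most frequent length of miR-669c-5p reads also set it apart. On its side of the hairpin 72.9% of reads were 24 nt, 13.8% were 22 nt and 11.5% were 23 nt. On the 5p side of the other repeat genes 55.9% were 22 nt and 5.36% were 24 nt. Some other Mir669 5p products, with far fewer reads, held more 24 nt reads than that pooled set. The share was 29.1% in the miR-669a-5p and miR-669p-5p product, 25.4% in miR-669h-5p and 22.6% in miR-669o-5p. It was 4% in miR-669l-5p, and miR-669d-5p was mostly 22 nt (80.8%). On the 3p side 52.7% were 22 nt and 0.395% were 24 nt. Reads of all other Mir hairpins were 22 nt in 46.6% and 24 nt in 7.50%. The 5′ start of miR-669c-5p was nearly fixed, with 33446 of 33601 reads (99.5%) at the start of its leading tag.

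**Figure D3:**
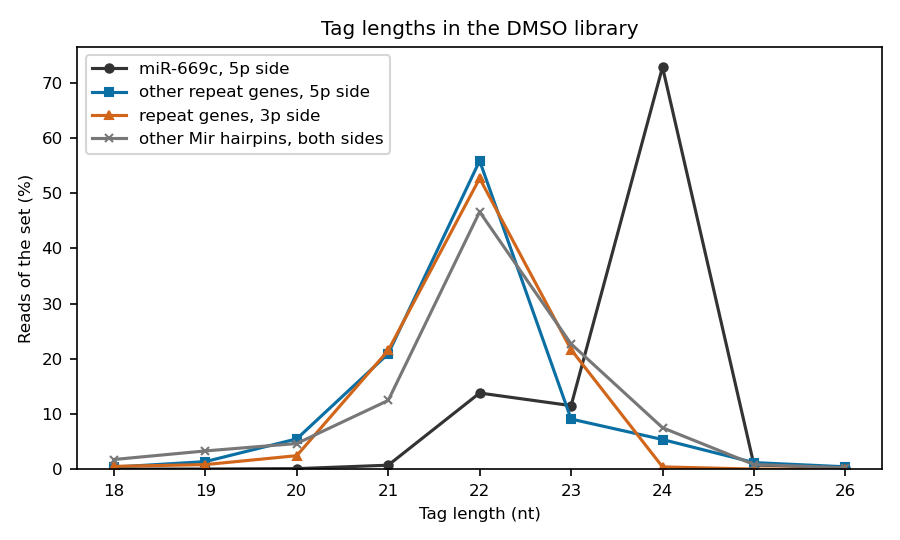
Share of reads in percent by tag length in nt, for miR-669c on the 5p side, other repeat genes on the 5p side, repeat genes on the 3p side, and other Mir hairpins in the DMSO library. The miR-669c line peaks at 24 nt with 72.9% and the other lines at 22 nt.

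Reads of the 5p and 3p sides were counted with shared reads and with own reads only. Mir669c had 33608 reads on the 5p side and 2 on the 3p side. Without it, the 5p side held 1698 of 6753 reads (25.1%). Among the 25 names with 50 reads or more after the equal split, 7 had more 5p than 3p reads. Counting only reads of 1 mature name, 10 names had 50 or more, and 6 of these had more 5p reads. The same counts over all Mir hairpins are not given here. The arm counts therefore do not show whether the repeat genes differ from other miRNAs. Own reads depend on which arm has unique tags, so an own-read share is not the arm share of a gene whose other arm is shared.

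Several genes show how far the counts can part. Mir467d had 185 own reads on the 5p side and 0 on the 3p side, while all of its 1304 3p reads were shared. With shared reads split equally over names, miR-467d had a 5p share of 22.2% and miR-467a 27.6%. That split gave the 1 gene of miR-467d as many 3p reads as the 10 genes of miR-467a. An equal split over genes left Mir467d 303 reads, with its 185 own 5p reads among them. For miR-467d the side with more reads thus depended on the split. Mir669o had 31 own 5p reads and 0 own 3p reads, but 1330 shared 3p reads. Mir297b had 23 own 5p reads and 386 shared 3p reads, and Mir466n had 14 own 3p reads and 38 shared 5p reads.

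For the 23 genes with 10 or more own reads, the exact interval of the 5p share lay above 50% in 9, below 50% in 13 and across 50% in 1. The 9 include Mir467d, Mir669o and Mir297b, and the 13 include Mir466n. All reads on the other arm of these genes were shared, so their intervals do not show which arm had more reads. Mir466f-2 had 0 own 5p reads of 444 and Mir466f-3 had 0 of 289, and miR-466f with shared reads had a 5p share of 0.996%. Mir466q, outside the intron, had 14 of 14 on the 5p side. Mir467e had 238 5p and 65 3p own reads, a 5p share of 78.5% (73.5% to 83.0%), and miR-467e with shared reads 76.9%. Mir467c had 196 and 11, a 5p share of 94.7% (90.7% to 97.3%), and with shared reads 91.8%. Mir669h had a 5p share of 72.6% (65.7% to 78.8%) over 190 own reads, and with shared reads 72.1%. The 5p majority of these 3 genes thus stood in both counts. Mir297a-2 had 0 own 5p reads of 81, and miR-297a with shared reads a 5p share of 2.83%.

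**Figure D4:**
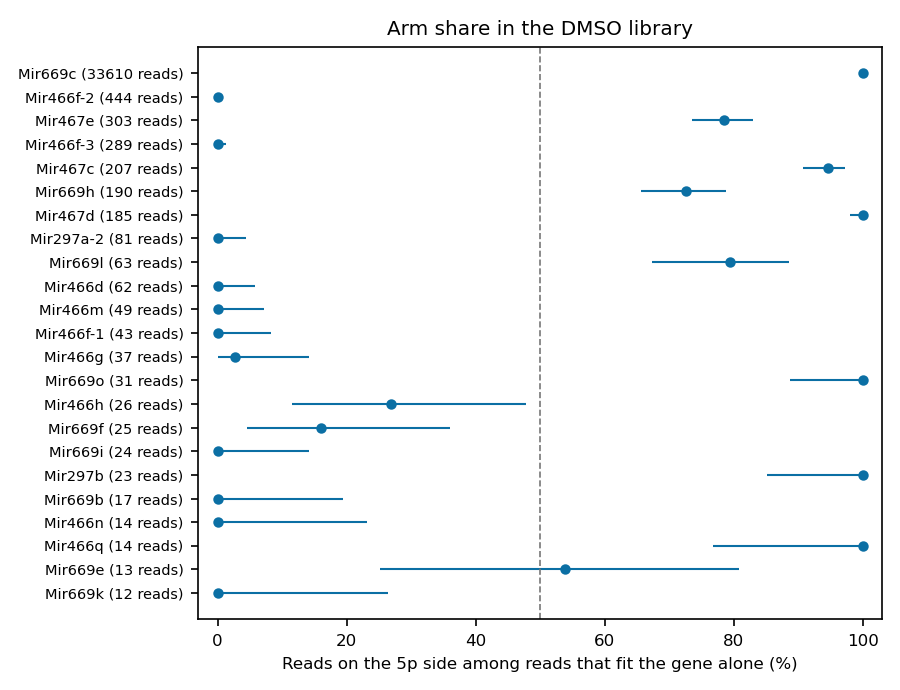
Share of 5p reads in percent among DMSO reads that fit 1 gene alone, with exact 95% intervals, for the 23 genes with 10 or more such reads; the dashed line marks 50%. Mir669c, Mir467c and Mir467e lie on the 5p side, and Mir466f-2 and Mir466f-3 on the 3p side; Mir467d, Mir669o and Mir297b sit at 100% while their 3p reads are shared with other genes and not plotted.

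By the seeds of their leading tags, the 33 products fell into 21 groups, with all reads of a product counted whatever their own start. The largest group, with the seed TATACAT, held 9 names from 3 prefixes. These were miR-297a-3p, miR-297b-3p, miR-297c-3p, miR-467a-3p, miR-467d-3p, miR-467e-3p, miR-669b-3p, miR-669l-3p and miR-669m-3p, with 1926 reads together. The seed CATAACA joined miR-669a-3p and miR-669o-3p with 1327 reads. TACACAC joined miR-466f-3p and miR-466i-3p with 873 reads, and TACATAC the 5 Mir466 names above with 361 reads. Counted by the bases of each tag, fewer reads held these seeds: 1683 TATACAT, 1263 CATAACA, 837 TACACAC and 155 TACATAC. By that count ATACATA, which is the seed of none of the 21 groups, was in 479 reads. In the 5-name Mir466 3p product it was more frequent than TACATAC. There 50.4% of reads began 1 nt further 5′, which gives ATACATA, and 42.1% at the leading start. The seed TAGTTGT of miR-669c-5p belonged to that name alone. None of the 21 seeds was shared with the leading tag of another miRNA. Other miRNAs were compared by their leading tags only, so seeds at their other 5′ starts were not counted.

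With bases 2 to 7 of the leading tags there were 18 groups, and 1 was shared with the leading tags of other miRNAs. It was AAGTGC, held by miR-467a-5p, miR-467b-5p and miR-467c-5p at 319 RPM together. The others in the group were miR-294-3p at 25217 RPM, miR-291a-3p at 4193 RPM, miR-291b-3p at 444 RPM, and the miR-302a-3p and miR-302d-3p pair at 12.0 and 21.2 RPM. Together they came to 29887 RPM. These belong to the embryonic stem cell clusters miR-290 to miR-295 and miR-302. In these leading tags the base after the 6 shared ones differed: it was C or G in the Mir467 products and T or A in the others. Other 5′ starts of the other miRNAs were not compared.

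Mir467 5p reads held these 6 bases at bases 2 to 7 from only some of their 5′ starts. Mir467a reads began at 1 start in 99.0%, with the seed AAGTGCC. Mir467c reads had AAGTGCG in 65.8% (58.7% to 72.4%) and TAAGTGC, 1 base further 5′, in 34.2%. Mir467d showed the other order, with TAAGTGC in 62.7% (55.3% to 69.7%) and AAGTGCG in 37.3%. The intervals of AAGTGCG in Mir467c and in Mir467d do not overlap. Mir467e had TAAGTGT in 73.1% and AAGTGTG in 26.9%. Counted by tag and not by name, 688 reads of the repeat genes, all on Mir467 genes, had AAGTGC at bases 2 to 7.

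**Figure D5:**
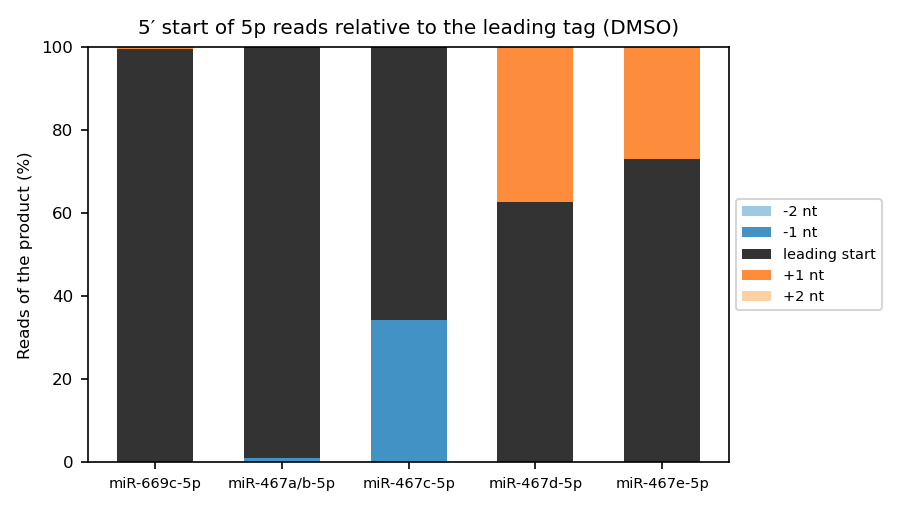
Share of reads in percent by 5′ start relative to the leading tag, in nt, for miR-669c-5p and 4 Mir467 5p products of the DMSO library. The start is nearly single in miR-669c-5p (99.5%) and miR-467a/b-5p (99.0%), while miR-467c-5p has 34.2% of reads 1 nt further 5′ and miR-467d-5p and miR-467e-5p have 37.3% and 26.9% 1 nt further 3′.

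The 3p products differed in the same way. The product shared by miR-669a-3p and miR-669o-3p began at its leading start in 94.5% of reads, and the Mir466f-2 product in 94.3%. The product of miR-467a-3p and miR-467d-3p did so in 82.4%, and 15.2% of its reads began 1 nt further 3′, with the seed ATACATA in place of TATACAT. The Mir297 3p product did so in 86.0%, with 11.7% 1 nt further 3′. The 5-name Mir466 3p product was the most spread of those with 100 reads or more: 42.1% of its 361 reads began at the leading start, 50.4% began 1 nt and 5.54% 2 nt further 5′. Most frequent lengths also varied, at 23 nt for the shared miR-669a-3p product (56.6%) and 22 nt for the Mir297 (83.2%) and miR-467a-3p (68.0%) products.

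Untemplated A or T at the 3′ end, bases of a tag that the hairpin does not hold, varied between products. Counted over reads in no other product, it was in 985 of 33601 plus 985 reads of miR-669c-5p, 2.85% (2.68% to 3.03%). Over all mature miRNAs of the DMSO library it was 9.74%. The Mir466f-2 and Mir466f-3 products had 23.6% (20.2% to 27.2%) and 32.0% (27.6% to 36.7%), and the 5-name Mir466 3p product 15.3% (12.0% to 19.0%). The 5p products of Mir467d and Mir467e had 0 such reads beside 185 exact ones and 4 beside 238. The Mir466f values lie above the value of all miRNAs and that of miR-669c-5p below it, beyond counting error. The bases differ, since the value of all miRNAs also counts reads shared by several products. The genome outside annotated transcripts was not searched. Reads of unannotated repeat copies that hold the added base were therefore not told apart from tailed reads.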

How the data were processed

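Small RNA libraries of J1 cells after 6 h with 1 µM SC1 or DMSO were used, 1 for each condition. The lists deposited by the authors give, for every distinct tag, its length in nt and a raw read count that was not normalized. The submitters' processing notes name mm9. Adapter, trimming and aligner: not given in the sources used here. A total on the last DMSO line was dropped.

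Genes, hairpins and GRCm38 coordinates came from GENCODE M21. DMSO tags of 18 to 26 nt and SC1 tags of 15 to 17 nt were matched exactly, in sense, to the 1174 Mir hairpins. Sides were set by the hairpin midpoint. An arm was defined by its most abundant DMSO tag with 10 or more reads. Reads starting within 2 nt and ending within 4 nt of it were assigned, shared reads being split equally over names. Products are arms with the same leading tag. Levels are RPM. Up to 3 untemplated A or T were removed for the 3′ end counts. RefSeq (GRCm38.p6) had mature entries for 8 of the 81 genes.

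Intervals are exact 95% Clopper-Pearson or Poisson intervals, for counting error only, since PCR reads are not independent molecules; a count of 0 was given a limit of 3 counts. With 1 library and lists of different tag lengths, no test between conditions was made. Named products were those of names at 100 RPM or more, the next 10 names, the top 3 of each prefix, the 5 with most short SC1 reads, and genes elsewhere with own reads; further names are given to complete seed groups or were chosen after their values were seen. The genes and lists were chosen with earlier results of these data known. The matching code was run on leading tags of the repeat genes, taken from the same hairpins, and on random tags. That run checks the code and not the placement of repeat reads. Matching ran in Python 3.11.15, intervals in scipy 1.17.1 (numpy 2.4.6) and plots in matplotlib 3.10.9.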

Additional observations from a re-analysis of the deposited data

Results flagged for a closer look

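Reads that begin with the first 17 bases of the miR-466g-3p leading tag numbered 405 in the DMSO list, and only 28 of them (6.91%, exact interval 4.64% to 9.84%) matched the hairpin exactly. The 405 reads are more than the 35 reads of the product, and most of them stayed outside the exact match. After the 20 bases of the leading tag the hairpin continues with A, which 13 reads had, while 191 had T, 171 had C and 18 ended there. Among the other products with 50 or more such reads, the exact share was between 71.2% and 99.1%. The cause was not tested. miR-466g-3p was chosen after its values were seen.

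A changed base stood out in the product of miR-467a-3p and miR-467d-3p. A9G, counted from the 5′ end of the leading tag, was in 65 reads beside 1304 unchanged ones, 4.75% (3.68% to 6.01%), on tags that match no transcript of the reference. The next most frequent change of this product was at 0.0767%. The same A9G was in 5 reads beside 386 of the Mir297 3p product, 1.28%. In miR-669c-5p, read more deeply, 41 different changes were seen, and the most frequent, G4T, was at 0.0416%. The cause was not tested.

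In the same Sfmbt2 intron, 48 further miRNA genes carry a Gm symbol and lie outside the chosen names. On them 20 DMSO reads on 15 tags, over 11 genes, fitted no Mir hairpin, and Gm22051 had 6 of these alone. Conversely, 3756 of the 40363 reads of the named genes (9.31%) also fitted one of the unnamed hairpins.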

How the results depend on the processing

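No paired analysis was possible because there was 1 SC1 and 1 DMSO library. The share of the repeat genes in Mir hairpin reads was 1.85%. It moved to 1.83% with tags of 10 or more reads, 1.95% at 20 to 24 nt and 1.75% with untemplated A or T removed. It was 5.91% by distinct tags, and 1.65% without tags that also match another transcript (removed for the repeat genes only). Of the 4488 reads on those tags, 3766 matched miRNA hairpins only among the other transcripts. The share that fits several genes, 11.3%, moved to 10.7% with tags of 10 or more reads and 45.0% by distinct tags. The intron share, 99.8%, moved to 99.9% with own reads only and to 99.9% when split by own reads. Leaving out Mir669c, chosen after seeing the data, gave 0.310%, 67.5% and 98.6% for these 3 shares. The 9 names at 100 RPM became 3 with reads of 1 name only, and 1 when scaled to the total of the DMSO list. The 21 seeds became 70 by single tag and 8 from annotated mature sequences of 8 genes. The short SC1 share, 0.0036%, became 0.00577% at 17 nt and 0.0022% with tags of 10 or more reads. It became 0.00209% without tags that also match another transcript. Of 76 single levels over 19 names and 4 settings, 29 left the counting interval, 8 higher and 21 lower; miR-669c-5p was the highest in all 4. Names with more 5p than 3p reads were 7 of 25, and 6 of 10 with reads of 1 name only, where the majority turned to 5p, 5 of 15 with the leading tags only and 7 of 24 at 20 to 24 nt. The causes were not tested. Names that share all tags cannot be told apart.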
